A study of Homo sapiens with 8 samples.

Results

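The 10 genes described here are the cell's sensors of double-stranded RNA and their closest partners, DDX58 (now RIGI), IFIH1, DHX58, MAVS, TLR3, EIF2AK2, OAS1, OAS2, OAS3 and ADAR. They were chosen by name, as all array probes whose RefSeq accession belongs to one of these symbols, because KHSRP is known to restrain RIG-I and because a small interfering RNA (siRNA) is itself a short double-stranded RNA. All 10 genes had a probe, 21 probes in all. For 9 genes, 18 probes passed the filter on dim signals, out of 12125 genes and 18761 probes tested on the whole array. RNA came from KYSE850 cells, an established line of human esophageal squamous cell carcinoma (ESCC). A total of 4 samples were transfected with control siRNA and 4 with siRNA against KHSRP, an RNA-binding protein that promotes mRNA decay and miRNA maturation. Each sample was hybridized to its own 1-colour Agilent array. Both groups carried an siRNA, and no untransfected cells were analysed here, so the comparison leaves out any response that both siRNAs share. The labels give neither which of the KHSRP siRNAs was on which array nor whether replicates were separate cultures, so p-values measure only the spread between these arrays, which may be technical.

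Double-stranded RNA longer than a few helical turns is rare in healthy cytoplasm and is read as a sign of virus infection. The helicases RIG-I (DDX58) and MDA5 (IFIH1) bind it and pass the signal to MAVS on mitochondria, with LGP2 (DHX58) as a related helicase that tunes them, whereas TLR3 senses the same ligand in endosomes. The resulting interferon turns on antiviral genes, among them most of the sensors themselves. PKR (EIF2AK2) stops translation, the OAS enzymes make a second messenger of linked adenylates, and ADAR edits adenosines to inosine and so hides the cell's own duplexes.

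Expression is given as a level, the log2 of a probe's signal over the 75th percentile of its array, so that 0 is the 75th percentile. Levels of different probes are not comparable, and a log2 fold change below is always the mean level with KHSRP siRNA minus that with control siRNA. KHSRP itself stood at 6.03, 5.81, 6.39 and 6.08 on the control arrays and at 2.52, 2.58, 2.88 and 2.85 on the KHSRP siRNA arrays. It fell to 9.66% of the control level (log2 fold change -3.37 ± 0.16 SE, adjusted p = 5.95e-05 by limma), which fits the labels on every array. Of the 42405 probes, each array had between 45.1% and 49.4% well above background. The squamous markers KRT5, KRT14, KRT6A, TP63, DSG3, PKP1 and SFN were well above background on all 8 arrays. Of the markers of other cells, the leukocyte gene LYZ had no probe by its accession. Of the rest 1 of 3 leukocyte (CD14), 1 of 5 fibroblast (COL1A1) and 0 of 3 endothelial genes passed the filter.

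The 8 arrays did not vary at random within their groups. Deviations from the group means correlated positively within the set of control arrays 1 and 3 with KHSRP arrays 1 and 4, and within the set of control arrays 2 and 4 with KHSRP arrays 2 and 3 (r between 0.29 and 0.84 over all tested probes). Between these sets every correlation was negative (-0.75 to -0.13). The replicate numbers of the authors' value table, which gives KHSRP arrays 3 and 4 each other's numbers, pair each KHSRP array with the control array it correlates with best. The results are therefore given first without pairing and then, where the call changes, with these pairs as a block. No stated design gives these pairs, which were chosen over the scanner files' numbers by the same array values that are tested. Calls with the block therefore depend on that choice. KHSRP array 1 had r = 0.521 with control array 1 and 0.375 with control array 3. KHSRP array 2 had r = 0.433 with control array 2 and 0.379 with control array 4. The cause of the sets was not tested.

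Without pairing, 0 of the 18 tested sensor probes and 0 of the 9 tested sensor genes passed an adjusted p of 0.05 (limma, Benjamini-Hochberg over all tested probes). Over the whole array 5.54% of probes were called. Adjusted p-values of the sensor probes lay between 0.0733 and 0.96. The differences were mostly upward, with 15 probes higher and 3 lower and a median log2 fold change of 0.23, against 0.01 over all probes, of which 51.8% were higher. Over genes, each read by its brightest tested probe, the median was 0.19, against 0.01 over all genes. It was 0.33 without control array 4 or KHSRP array 4 and 0.11 with median scaling or normexp background correction. Median scaling shifts all genes alike, so the median over all genes moves with it. The levels on all arrays are shown gene by gene in the plot of levels by array.

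**Figure D1:**
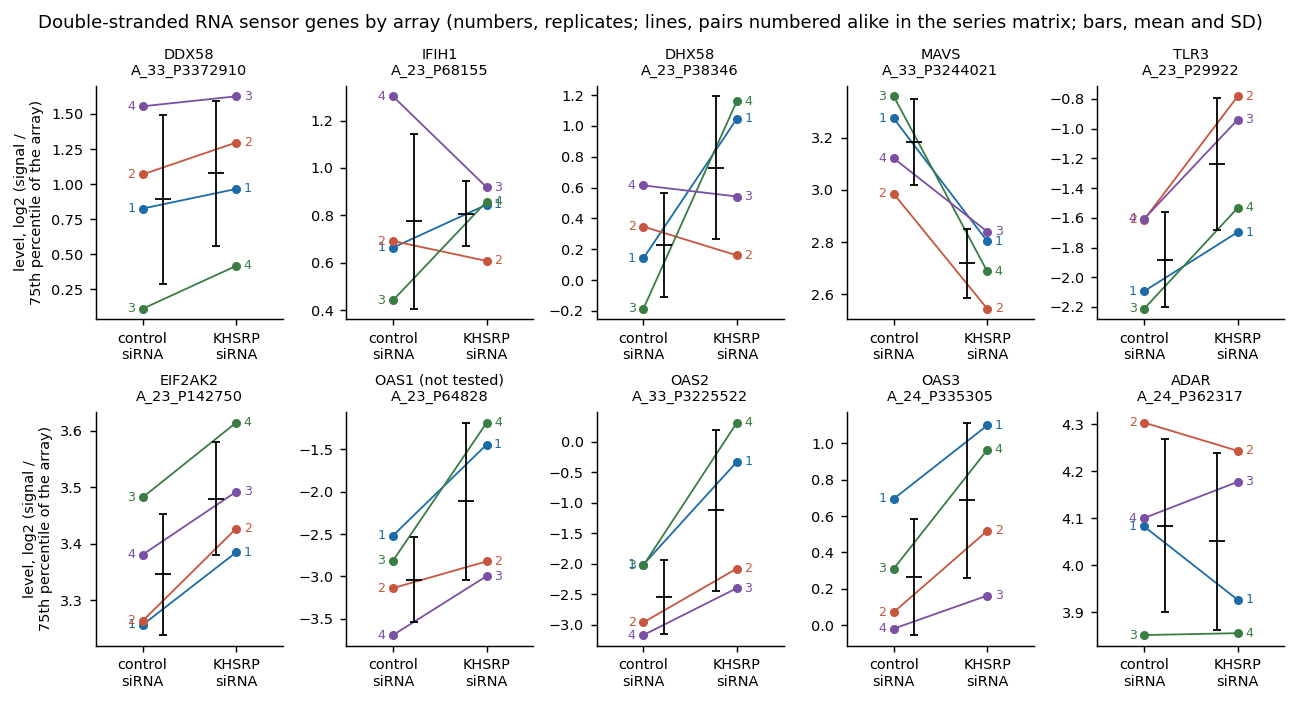
Level of each sensor gene (log2 of signal over the array's 75th percentile; axes differ) on the 4 control siRNA and 4 KHSRP siRNA arrays, for the probe named above each panel. Numbers are replicates, lines join arrays paired by the series matrix numbers and black bars are the mean and SD. DDX58, MAVS, TLR3, EIF2AK2 and the OAS genes kept one direction in 4 of 4 pairs by these probes, while IFIH1, DHX58 and ADAR went both ways. OAS1, OAS2, OAS3 and DHX58 were highest on KHSRP arrays 1 and 4.

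With the replicate block, 9 of the 18 sensor probes passed, 8 higher and 1 lower with KHSRP siRNA. They belonged to 4 genes: MAVS with 6 probes, and TLR3, OAS2 and OAS3 with 1 each. The block raised the number of calls everywhere, to 30.1% of all probes, with 14.8% called higher and 15.3% called lower. Higher calls thus made up a larger share of the sensor probes than of all probes and lower calls a smaller one, although 5 of the 8 higher calls come from the one gene MAVS. In 4 of 4 pairs, 10 of the 18 probes were higher and 2 were lower, whereas 25.8% and 25.0% of all probes were. Here too 5 of the 10 higher probes, and the 2 lower ones, belong to MAVS, so these probes are not independent. Both sets of standard errors are drawn in the plot of changes by probe.

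**Figure D2:**
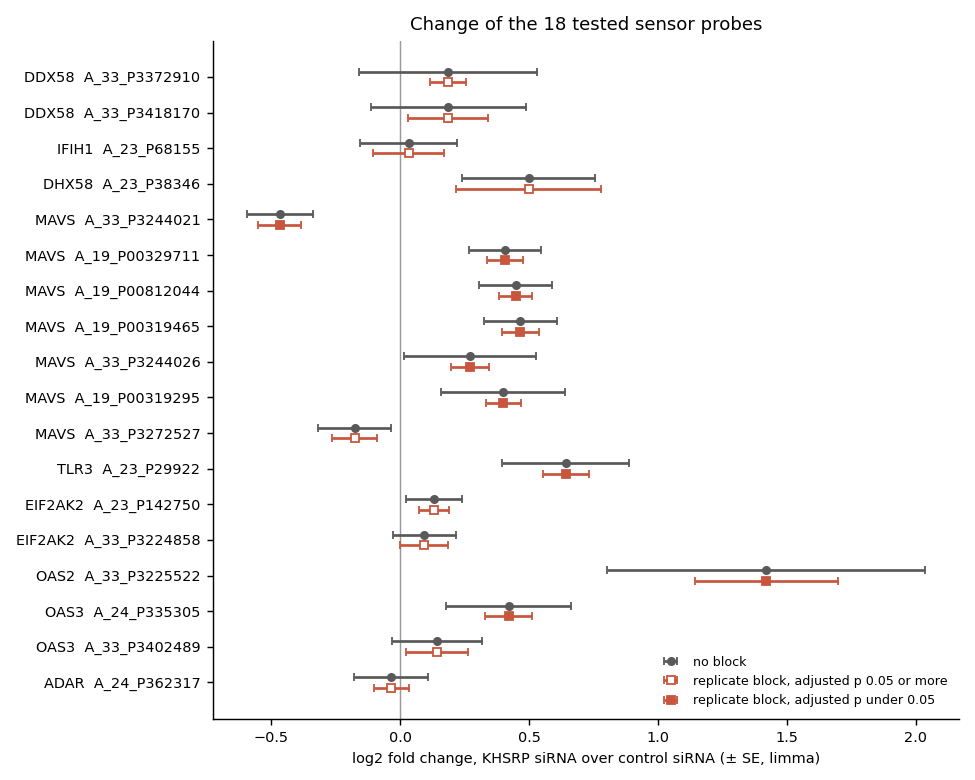
Log2 fold change (x axis, KHSRP siRNA over control siRNA, bars ± SE) of the 18 tested sensor probes, without a block (grey circles) and with the replicate block (red squares, filled where the adjusted p is under 0.05). The fold changes are the same in both fits and the standard errors shrink with the block, so that 6 MAVS probes and 1 probe each of TLR3, OAS2 and OAS3 pass.

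RIG-I, the sensor that KHSRP is known to restrain, did not pass the test by either of its probes. By A_33_P3372910, DDX58 stood at 0.83, 1.07, 0.11 and 1.56 on control arrays 1 to 4 and at 0.97, 1.30, 1.63 and 0.42 on KHSRP arrays 1 to 4. The groups overlapped almost fully, and each group had its lowest value within the set of control 1, control 3, KHSRP 1 and KHSRP 4. They differed by a log2 fold change of 0.19 ± 0.35 SE, which did not pass (adjusted p = 0.856 by limma, 0.095 with the replicate block), and the differences within pairs ran from 0.07 to 0.31. By the second probe, A_33_P3418170, the controls lay between -0.80 and -0.16 and the KHSRP siRNA arrays between -0.97 and 0.26, which gave 0.19 ± 0.30 SE on the log2 scale (adjusted p = 0.828). The probes had their highest KHSRP values on different arrays, the first on array 3 and the second on array 4. By the second probe KHSRP arrays 1 and 4 (0.205 and 0.264) lay above every control, and KHSRP arrays 2 and 3 read -0.97 and -0.694. By the first probe KHSRP array 4 was instead the lowest of its group, so the probes disagree on the order of the arrays. The gene lies at chr9:32455302-32526196 (GRCh38.p14).

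IFIH1, the sensor of long duplexes, was nearly level between the groups. Its probe read 0.66, 0.69, 0.44 and 1.30 with control siRNA and 0.85, 0.61, 0.92 and 0.86 with KHSRP siRNA. Control array 4 was the highest of all 8, the groups overlapped and their means differed by 0.03 ± 0.19 SE on the log2 scale (adjusted p = 0.96). Its promoter is shown here, beside that of OAS3 below, because both hold the core of the element by which interferon acts on many sensor genes. The motif, GAAA followed by any 2 bases and GAAA, searched on both strands from 250 bases before to 50 after the start site, occurs in 3.57% of 35116 RefSeq promoters and in 4 of the 8 sensor genes with an entry (EIF2AK2, IFIH1, OAS3 and TLR3). In IFIH1 there were 3 matches, of which the 2 farthest from the start overlap. The stretches below read 5′ to 3′ along the gene's strand, the minus strand, with the match in capitals, at positions -159 to -150 (on the opposite strand) and -21 to -12 from the start site.
IFIH1, chr2:162318819-162318858: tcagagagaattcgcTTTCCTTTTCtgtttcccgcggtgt
IFIH1, chr2:162318685-162318720: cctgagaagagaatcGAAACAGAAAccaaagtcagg
A match is a description of these letters only, and its part in the values was not tested.

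DHX58, which encodes LGP2, differed more, but not on every array. Its probe read 0.14, 0.35, -0.19 and 0.61 with control siRNA and 1.05, 0.16, 0.54 and 1.16 with KHSRP siRNA. KHSRP arrays 1 and 4 lay above every control, whereas KHSRP arrays 2 and 3 lay within the control range. The log2 fold change was 0.50 ± 0.26 SE, a 1.41-fold difference (adjusted p = 0.344, 0.231 with the block). Within pairs DHX58 was higher by 0.91 and 1.35 in the pairs of KHSRP arrays 1 and 4, and the other pairs gave -0.19 and -0.07.

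MAVS, the mitochondrial adaptor that RIG-I and MDA5 share, gave opposite differences by different probes. By the brightest, A_33_P3244021, it stood at 3.27, 2.99, 3.36 and 3.12 with control siRNA and at 2.80, 2.54, 2.84 and 2.69 with KHSRP siRNA, so every KHSRP array lay below every control array. Its log2 fold change, -0.47 ± 0.13 SE, had an adjusted p of 0.0733 without and 0.0122 with the block, and it was -0.46 and -0.48 within the slides. Of the 5 other probes annotated to the same transcript, NM_020746, all were higher with KHSRP siRNA.

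Among these, A_19_P00319465 read 1.93, 2.21, 1.77 and 2.05 with control siRNA and 2.38, 2.54, 2.66 and 2.24 with KHSRP siRNA, which made a log2 fold change of 0.47 ± 0.14 SE, with an adjusted p of 0.104 without and 0.0081 with the block. The groups of A_19_P00812044 and A_19_P00329711 did not overlap either, with log2 fold changes of 0.45 and 0.41 (0.00679 and 0.0104 with the block). Together with the brightest probe, these were the 4 sensor probes whose groups did not overlap, 3 upward and 1 downward, where 14.8% of all probes had such groups. A_19_P00319295 and A_33_P3244026 overlapped between groups, with log2 fold changes of 0.40 and 0.27 (0.0104 and 0.0431 with the block). Without KHSRP array 3 these were 0.26 and 0.09, and for the latter 0.14 without control array 3 and 0.41 without control array 4. The seventh probe, A_33_P3272527, is annotated to another transcript, NM_001206491, and gave -0.18 ± 0.14 SE (adjusted p = 0.584), or -0.10 without control array 2 or KHSRP array 3.

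The brightest MAVS probe correlated negatively with the other NM_020746 probes over the 8 arrays (r from -0.86 to -0.48). Of 11450 genes, the one most like it in level over the arrays was SUB1, a transcriptional coactivator, by probe A_24_P320328 (r = 0.99, 8 arrays that share the groups). This SUB1 probe fell by 0.53 on the log2 scale (± 0.13 SE, adjusted p = 0.0481, 0.0066 with the block). With each probe centred on its control mean, the MAVS and SUB1 probes differed by at most 0.11 on any array, whereas the MAVS probe differed from each of its NM_020746 companions by 1.16 or more on at least 1 array. The second SUB1 probe, A_32_P170444, went less closely with the MAVS probe (r = 0.65, a difference of up to 0.41), and its log2 fold change of -0.39 ± 0.19 SE did not pass (adjusted p = 0.324, 0.0122 with the block). The next genes were the histone genes H2BC13 and H2BC11 (r = 0.97 each). Whether the MAVS probe reads another transcript was not tested, as probe sequences were not analysed here. The direction of MAVS thus depends on the probe, and its lower value rests on A_33_P3244021 and A_33_P3272527 alone.

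**Figure D3:**
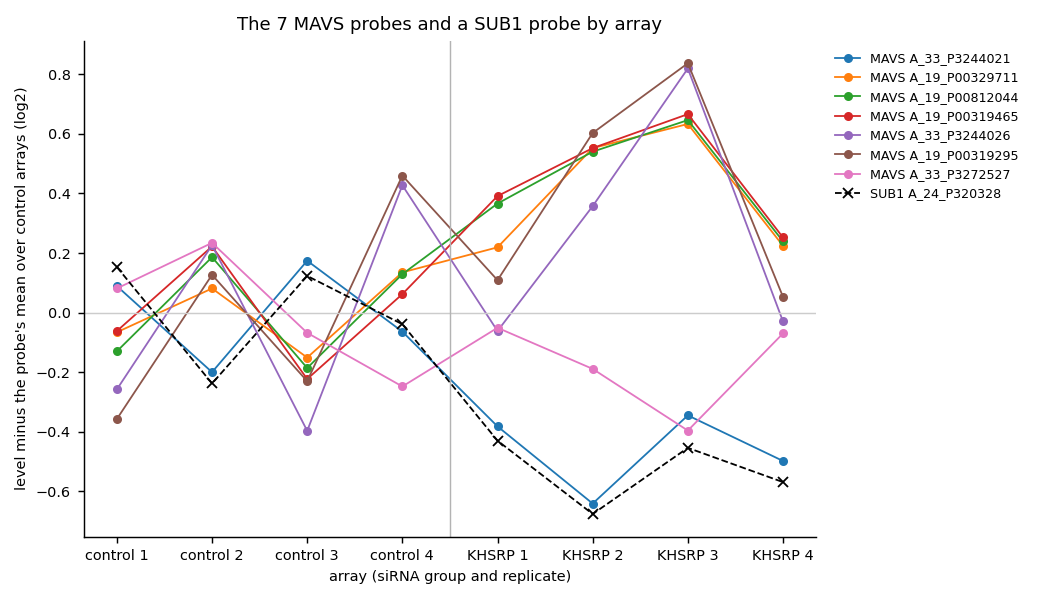
Level of the 7 MAVS probes and of the SUB1 probe A_24_P320328 on each array, minus the probe's own mean over the 4 control arrays (y axis, log2). Of the 6 probes annotated to NM_020746, 5 lie above 0 on KHSRP arrays 2 and 3, while A_33_P3244021 stays below 0 on all 4 KHSRP arrays and lies within 0.11 of the SUB1 probe on every array.

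TLR3, the endosomal sensor, was dim but well above background on all 8 arrays. It read -2.09, -1.61, -2.21 and -1.61 with control siRNA and -1.70, -0.78, -0.94 and -1.53 with KHSRP siRNA. KHSRP arrays 2, 3 and 4 exceeded every control, and KHSRP array 1 fell inside the control range. The log2 fold change was 0.64 ± 0.25 SE, 1.56-fold (adjusted p = 0.189 without pairing). Within pairs TLR3 was higher by 0.40, 0.83, 0.68 and 0.67, and with the block the same difference passed (± 0.09 SE, adjusted p = 0.00614). It was 0.61 and 0.67 within the slides. With normexp background correction the log2 fold change was 0.30.

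EIF2AK2 and ADAR differed little between the groups. EIF2AK2, by A_23_P142750, lay between 3.26 and 3.48 on the control arrays and between 3.39 and 3.61 on the KHSRP arrays. Although it was higher in 4 of 4 pairs, by 0.11 to 0.16, its log2 fold change of 0.13 ± 0.11 SE did not pass (adjusted p = 0.593, 0.141 with the block). The second probe, A_33_P3224858, gave 0.09 ± 0.12 SE (adjusted p = 0.773) and 0.01 without control array 1. ADAR read 4.08, 4.30, 3.85 and 4.10 with control siRNA and 3.93, 4.24, 4.18 and 3.86 with KHSRP siRNA, with overlapping groups and a difference of -0.03 ± 0.14 SE (adjusted p = 0.944). Its pairs went both ways, from -0.16 to 0.08.

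The 3 OAS genes are neighbours on chromosome 12 (OAS1 at chr12:112906962-112933219, OAS3 at chr12:112938474-112973251 and OAS2 at chr12:112978519-113011723) and shared a pattern across the arrays. OAS2 had the largest log2 fold change of the tested sensor probes. By A_33_P3225522 it read -2.02, -2.96, -2.03 and -3.17 with control siRNA and -0.33, -2.08, -2.40 and 0.31 with KHSRP siRNA. KHSRP arrays 1 and 4 stood above all controls, while KHSRP arrays 2 and 3 lay among them. The log2 fold change was 1.42 ± 0.62 SE, 2.68-fold, without a call (adjusted p = 0.25). Every pair was higher, by 1.69, 0.88, 2.34 and 0.77, and with the block the change passed (± 0.28 SE, adjusted p = 0.0158). Without KHSRP array 4 the log2 fold change was 0.94, and with normexp background correction it was 0.59. The other OAS2 probes were well above background on 1 of 4 control and 3 of 4 KHSRP arrays each and were not tested. They differed upward by 1.43 and 0.90.

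OAS3 followed at a smaller size. A_24_P335305 read 0.70, 0.07, 0.31 and -0.02 with control siRNA and 1.099, 0.52, 0.16 and 0.96 with KHSRP siRNA. Again KHSRP arrays 1 and 4 were the highest, and the other KHSRP arrays lay within the control range. The log2 fold change of 0.42 ± 0.24 SE (adjusted p = 0.402) passed with the block (± 0.09 SE, adjusted p = 0.0216), all pairs being higher by 0.18 to 0.65. The dim second probe, A_33_P3402489, gave 0.14 ± 0.17 SE (adjusted p = 0.753). The OAS3 promoter holds 2 matches to the same motif on the sense strand, the plus strand, at positions -143 to -134 and -12 to -3 from the start site, shown in capitals.
OAS3, chr12:112938316-112938355: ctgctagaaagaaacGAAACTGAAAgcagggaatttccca
OAS3, chr12:112938447-112938473: cggagagccgggcggGAAAACGAAAcc

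OAS1 was too dim for the test, being well above background on 3 of 4 arrays in each group. It read -2.52, -3.14, -2.81 and -3.69 with control siRNA and -1.45, -2.82, -3.00 and -1.19 with KHSRP siRNA, with KHSRP arrays 1 and 4 above every control. The mean difference was 0.93, and every pair was higher, by 0.32 to 1.63.

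Across the 8 arrays OAS2 and OAS3 went together (r = 0.92, and 0.89 after removal of the group means), as a description over arrays that share groups, slides and sets. TLR3 went the other way within groups, with r of -0.91 to OAS2 and -0.85 to OAS3 after removal of the group means. This was not particular to TLR3. DDX58, by its brighter probe, had -0.83 and -0.66, and ADAR had -0.82 and -0.62. DHX58 (0.44 and 0.28) and MAVS by its brightest probe (0.32 and 0.28) had positive values. Of 11 interferon-induced genes outside the sensor set, 7 likewise had KHSRP arrays 1 and 4 above every control, and ISG15, MX1, IFI6 and CXCL10 did not. This pattern was read from the OAS values on these same arrays. Its share among all tested genes was not counted, so the 7 genes have no background to be judged by. The mean of the 11 genes, each taken relative to its mean over 8 arrays, was 0.74 and 0.80 on KHSRP arrays 1 and 4, -0.36 and -0.30 on KHSRP arrays 2 and 3, and between -0.69 and 0.12 on the controls. The 7 squamous markers also split by set, at 0.80 to 1.20 on control arrays 1 and 3 and KHSRP arrays 1 and 4 and at -1.41 to -0.67 on the others. Their part in the OAS values was not tested, and in such bulk RNA a different share of cells cannot be told apart from a different level per cell.

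**Figure D4:**
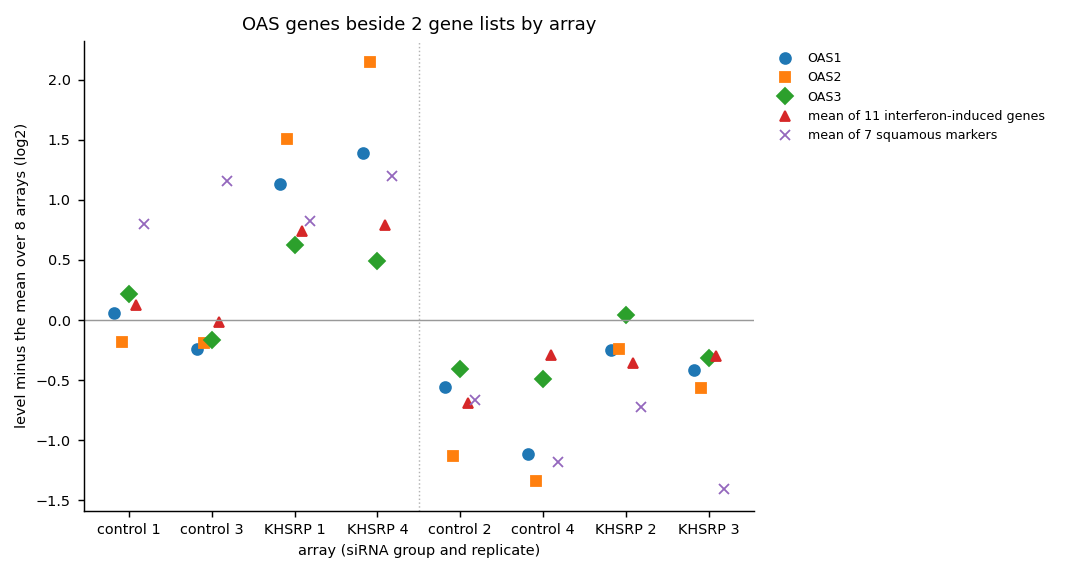
Level minus the mean over 8 arrays (y axis, log2) for OAS1, OAS2 and OAS3, for the mean of 11 interferon-induced genes and for the mean of 7 squamous markers, by array, with the arrays of each set side by side. The OAS genes and the interferon-induced mean are highest on KHSRP arrays 1 and 4, whereas the squamous mean is above 0 on control arrays 1 and 3 as well.

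The genes around the sensors were read from 7 lists, 81 genes in all, of which 74 were tested. Of these, 3 rose and 1 fell without pairing, 48 had a positive and 26 a negative log2 fold change, and the median was 0.15. The 4 calls among 74 genes are close to the 5.54% of all probes called. With the replicate block 20 were higher and 4 lower, where 14.8% and 15.3% of all probes were. The 3 that rose all belonged to RIG-I-like receptor signalling, where 30 of 31 genes were tested and the median was 0.01.

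RNF135 (Riplet), the ubiquitin ligase that activates RIG-I, read 2.24, 2.01, 2.35 and 1.92 with control siRNA and 2.86, 3.14, 2.79 and 2.99 with KHSRP siRNA. It rose by a log2 fold change of 0.82 ± 0.14 SE, 1.76-fold (adjusted p = 0.0127), with every KHSRP array above every control. RNF125, a ligase that marks RIG-I and MDA5 for degradation, rose by 1.03 ± 0.21 SE, 2.03-fold (adjusted p = 0.0279), from 0.02 to 0.74 on the control arrays to 1.03 to 1.72 on the KHSRP arrays. NLRX1, a mitochondrial protein known to dampen MAVS signalling, rose by 0.62 ± 0.09 SE, 1.53-fold (adjusted p = 0.00809), and its arrays lay within 2.69 to 2.77 and 3.31 to 3.37. RNF135 and NLRX1 still passed whichever array was left out. RNF125 passed only without control array 4 (0.0284) or KHSRP array 4 (0.0344), with adjusted p up to 0.0915 without another. TRIM25, the first known ligase of RIG-I, had 0.38 ± 0.15 SE (adjusted p = 0.192, 0.0135 with the block), and the transcription factor IRF3 had -0.20 ± 0.22 SE (adjusted p = 0.726).

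Among the 9 genes of the PKR list, 0 rose and 1 fell, a count too small to read against the 5.54% of all probes. DNAJC3, a chaperone that inhibits PKR, fell by 0.61 on the log2 scale (± 0.12 SE, adjusted p = 0.0217), from 2.41 to 2.66 on the controls to 1.74 to 2.10 on the KHSRP arrays. PRKRA, a protein activator of PKR, had 0.11 ± 0.10 SE (adjusted p = 0.659). When 1 array was left out, DNAJC3 passed only without KHSRP array 4 (0.0274), and otherwise its adjusted p rose to as much as 0.0701. With median scaling only 1 of these 4 list genes, DNAJC3, passed, and with no filter on dim probes none did. IFNB1 was well above background on 2 of 4 arrays in each group and was not tested.

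In the other lists 0 genes passed without pairing. With the block 6 of the 15 tested genes of interferon signalling were higher and 0 lower, beside 14.8% and 15.3% of all probes. Among the 6, IFNL3 passed the filter through the KHSRP siRNA arrays alone. Over the list the median log2 fold change was 0.27. In the TLR3 list (3 genes tested) the adaptor TICAM1 had 0.27 ± 0.12 SE (adjusted p = 0.262, 0.0339 with the block). In the OAS list (3 genes tested) 0 passed in either fit, and the median was 0.18. In the list around ADAR 3 of 4 genes were tested and 0 passed in either fit. Of 11 tested interferon-induced indicator genes 10 had a positive log2 fold change, with a median of 0.48, and 4 were higher with the block, again beside 14.8% of all probes.

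**Figure D5:**
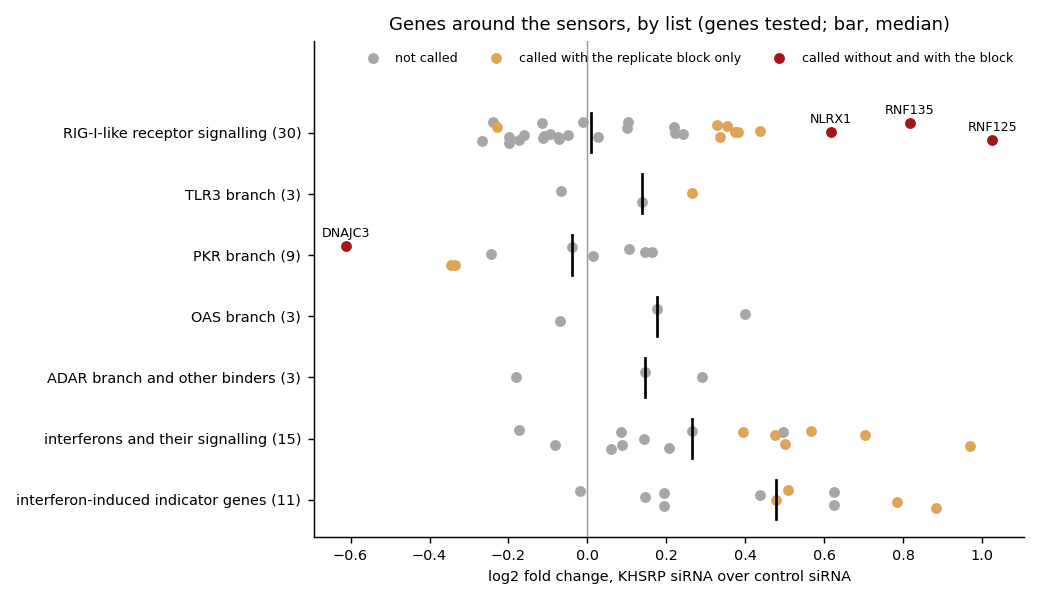
Log2 fold change (x axis, KHSRP siRNA over control siRNA) of each tested gene around the sensors, by list, with the number of genes in parentheses and a bar at the median. Dark red points passed without and with the replicate block and are named, yellow points passed with the block alone and grey points passed in neither.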

How the data were processed

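Total RNA of KYSE850 cells was labelled with Cy3 and hybridized by the authors to Agilent whole human genome arrays, with 4 arrays per siRNA group on 2 slides that each held 2 arrays of both groups. The deposited scanner files hold, per the file headers, the background-subtracted intensity of each spot from Agilent Feature Extraction (12.6 in the submitters' processing notes, an earlier version in the file headers). The deposited value table holds log2 values of the same arrays, scaled and centred per probe, with column medians of -0.25 to 0.23, and was used as an alternative. Its columns labelled KHSRP siRNA 3 and 4 match each other's scanner file (r = 1.0, against -0.43 for the same label), and arrays are named here by the scanner files.

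Control and outlier spots were left out and spots of a probe averaged. The log2 intensity was scaled to the array's 75th percentile. Probes with a share of at least 0.5 of spots well above background on all 4 arrays of a group were tested. Symbols came from the RefSeq accessions in the files (27241 of 42405 probes, 64.2%). The siRNA groups entered a two-sided limma fit (version 3.58.1, R 4.3.3) that had no block. P-values were adjusted across the whole set of tested probes by the Benjamini-Hochberg method, and 0.05 was the threshold. The scripts were tested on simulated data. The number of arrays limits the precision, and no spot was saturated.

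Same-numbered arrays were checked for shared deviations. With the scanner files' numbers, pair correlations were 0.52, 0.43, -0.67 and -0.64. With the value table's numbers they were 0.52, 0.43, 0.83 and 0.84, so these were used as pairs for the replicate block. Named are all sensor genes, KHSRP, each called list gene, fixed genes that act on a sensor and the 3 genes most like MAVS. The members and lists were chosen with earlier results of these data known, and some list genes are not reported here. Promoter sequences are from RefSeq (GRCh38.p14). Alternatives were other scalings, background corrections, filters, blocks, slides and each array left out.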

Additional observations from a re-analysis of the deposited data

Results flagged for a closer look

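For EIF2AK2 by probe A_33_P3224858, control array 1 lay apart from the other controls. It read -0.98, with the nearest control at -0.67, and this gap made up a share of 0.88 of the range of the 4 control arrays, above Dixon's critical value for groups of 4. Of 44 groups of arrays checked in this way, 1 passed that value, and chance passes about 1 in 20. Without that array the log2 fold change of this probe was 0.012.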

How the results depend on the processing

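Under 2 alternatives sensor genes were called. With normexp background correction 1 gene and 1 probe passed (MAVS by its brightest probe, adjusted p = 0.0428), and with the replicate block by the numbers of the value table, the results were 4 genes and 9 probes. With the scanner files' replicate numbers as a block, 0 genes passed, as in every fit without 1 array (0 to 0) and by the Student's test that the methods name, adjusted by Benjamini-Hochberg. The 4 calls among the list genes became 1 with median scaling, 0 with no filter, 0 within each slide, 0 with the scanner files' replicate block, 24 with the value table's replicate block, 7 with the mean over a gene's probes and 2 to 4 without 1 array. KHSRP kept its size within the slides (-3.37 and -3.37) but with 2 arrays a group did not pass (adjusted p = 0.19 and 0.777).

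Several small differences changed sign. IFIH1 was -0.041 with median scaling, which shifts all probes of an array alike (KHSRP went from -3.372 to -3.446). Within slide 2, EIF2AK2 by A_33_P3224858 was -0.008 and ADAR 0.041. Without 1 array the log2 fold change ranged from -0.074 to 0.408 for DDX58 by A_33_P3372910, from -0.001 to 0.411 by A_33_P3418170, from -0.078 to 0.209 for IFIH1, from -0.005 to 0.27 for OAS3 by A_33_P3402489 and from -0.111 to 0.039 for ADAR. The cause of the sign changes other than that with median scaling was not tested. The other tested sensor probes kept their direction under all alternatives run. A motif shorter by 1 base (GAAA, any 2 bases, GAA) occurred in 8.11% of promoters and in the same 4 sensor genes.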

Other observations

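The type III interferon gene IFNL1, named after its values were seen, had the array pattern of OAS2. It read -0.50, -1.71, -0.59 and -0.93 with control siRNA and 0.88, -0.76, -0.86 and 0.88 with KHSRP siRNA, so that KHSRP arrays 1 and 4 lay above every control and the other KHSRP arrays among them. Its log2 fold change was 0.97 ± 0.48 SE (adjusted p = 0.321 by limma, 0.0326 with the replicate block). IFNL2 and IFNL3, near-identical copies of each other, had 0.50 and 0.70 (adjusted p = 0.33 and 0.115, 0.052 and 0.0334 with the block), and are uncertain, as signals of such copies cannot be told apart. The IFNL3 probe was well above background on 2 of 4 control and 4 of 4 KHSRP arrays, so it was tested only through the group where it is high. STAT2, a transcription factor of the interferon response that was also named after its values were seen, had 0.57 ± 0.14 SE with every KHSRP array above every control (adjusted p = 0.0592, 0.00699 with the block).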
